A study of Mus musculus with 6 samples.

Results

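The matrix-binding integrins described here are the probe sets of 10 genes, Itga1, Itga4, Itga5, Itga6, Itga10, Itga11, Itgav, Itgb1, Itgb3 and Itgb5, chosen by the gene symbol that the platform annotation gives. A probe set was a member where its annotation held exactly 1 symbol and that symbol was one of the 10, which gave 31 of the 45101 probe sets on the array for 9 of the 10 genes, out of 18193 genes with such a probe set. Itga11 was not analysed here, because no probe set carried its symbol alone. The arrays compared a Grem1+ fraction (3 arrays), described only as sorted for Grem1, with a Grem1- fraction (3 arrays) of the same 3 mice, which was the non-recombined part of the marrow negative for CD45, CD31 and Ter-119. All animals carried the Grem1;TdTomato genotype on a C57BL/6J background, were recorded as male, were 6 to 8 weeks old and had been given tamoxifen by mouth, so both fractions shared the alleles and the drug. The labels do not say which promoter drove recombination or how many cells were sorted.

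Integrins are receptors of the cell surface in which 1 alpha and 1 beta subunit pair to bind extracellular matrix outside the cell and the actin skeleton inside it. The beta 1 subunit pairs with many alpha subunits, and the alpha subunit then sets the ligand: alpha 1, alpha 10 and alpha 11 bind collagens, alpha 6 binds laminins, alpha 5 binds fibronectin, and alpha 4 binds fibronectin and VCAM-1. The alpha V subunit also pairs with beta 3 or beta 5 and binds vitronectin, osteopontin and other proteins that carry the RGD motif. In cartilage, integrins hold chondrocytes to collagen II and fibronectin, and in blood-forming marrow alpha 4 beta 1 holds leukocytes and progenitors to stromal VCAM-1.

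The medians of the 6 arrays lay between 3.74 and 3.81 (deposited log2 values). Before the results, the labels were set against their markers. Grem1 itself read 4.49, 4.14 and 8.61 in Grem1+ of mice 1, 2 and 3 and 3.69, 3.75 and 3.70 in Grem1-, so it was clearly above the dim range in mouse 3 alone. Ptprc, which encodes the CD45 of the gate, had a mean of 9.15 (SD 1.68) over Grem1+ arrays and of 12.09 (SD 0.30) over Grem1- arrays, and its dimmer probe set lay at 2.53 to 3.71 in Grem1+ and 8.37 to 9.38 in Grem1-. The fraction labelled CD45-negative thus had the higher CD45 transcript. Pecam1, which encodes the CD31 of the gate, had a mean of 3.30 over Grem1+ arrays and of 4.80 over Grem1- arrays and did not pass (limma adjusted p = 0.0638). Over 12 leukocyte markers the mean level was 6.68 to 7.86 in Grem1+ and 10.06 to 10.36 in Grem1- arrays (summed level 80.11 to 94.35 and 120.78 to 124.32), with 2 to 3 and 0 markers below log2 4. Over 10 chondrocyte markers it was 11.12 to 11.25 in Grem1+ and 7.08 to 7.64 in Grem1-, and 9 of them were higher and 0 lower. The sex transcripts of mouse 3 went against its label, with Xist at 10.60 and 11.04 in its 2 fractions and at most 2.99 on the other 4 arrays, and Eif2s3y at 3.42 and 3.08 against at least 7.98 elsewhere. Gapdh control probes, whose 3' end outshines the 5' end where RNA is degraded, had end differences of 2.98 to 3.88 in Grem1+ and 2.31 to 2.99 in Grem1-, while the actin control gave -0.03 to 0.17 on Grem1+ arrays and 0.15 to 0.17 on Grem1- arrays. In RNA of bulk fractions, fewer cells of a type and less RNA per cell cannot be told apart, and the part of these features in the integrin differences was not tested.

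Itga5, Itga6, Itga10 and Itgav rose in Grem1+ on at least 1 probe set each, with log2 differences of 2.17 to 3.73 where they passed the test, and the shared partner Itgb1 rose by 1.43 on 1 of its probe sets. Itga4 fell on 3 probe sets, with log2 differences of -4.30 to -2.12, or -3.74 to -1.94 with values below log2 4 set to 4. Itgb3 fell by 1.62 on 1 probe set. Itga1 and Itgb5 had no probe set past the threshold. Of the 31 probe sets, 26 lay above log2 4 on at least 3 arrays and were tested, and 5 were too dim. Of the 26, 7 were higher and 4 lower (limma with the mouse as a block, Benjamini-Hochberg adjusted p under 0.05 over all 18157 probe sets tested), where 10.1% of all tested probe sets were higher, 7.76% lower and 17.8% either. The median difference was 1.30 over the 26 and -0.01 over all probe sets tested. All Grem1+ values lay above all Grem1- values on 13 of the 26 and below them on 5, against 21.6% and 20.4% of all probe sets tested. The probe sets of Itga10 and 1417533_a_at of Itgb5 passed the filter through their Grem1+ arrays alone, so these counts describe the probe sets that passed and not the whole family.

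In fits on 2 mice that kept the block, limma called 0 probe sets in the whole table. Of the 26, 19, 16 and 12 had an unadjusted limma p under 0.05 without mouse 1, 2 and 3. Of all 18157 probe sets tested, 5158, 5085 and 4967 had such a p in the same fits. Without the block, 10 were higher and 5 lower with all arrays, where 23.2% of all tested probe sets were called. Leaving out mouse 3, whose sex transcripts went against its label, then gave 5 higher and 1 lower. The fit without mouse 1 gave 8 higher and 2 lower, and that without mouse 2 gave 6 higher and 1 lower. Of all tested probe sets, 10.3%, 10.6% and 10.6% were called without the block and without mouse 1, 2 and 3. Past the threshold in all 3 of these fits were 1422445_at of Itga6, 1452784_at and 1432296_a_at of Itgav and 1450155_at of Itga4.

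**Figure D1:**
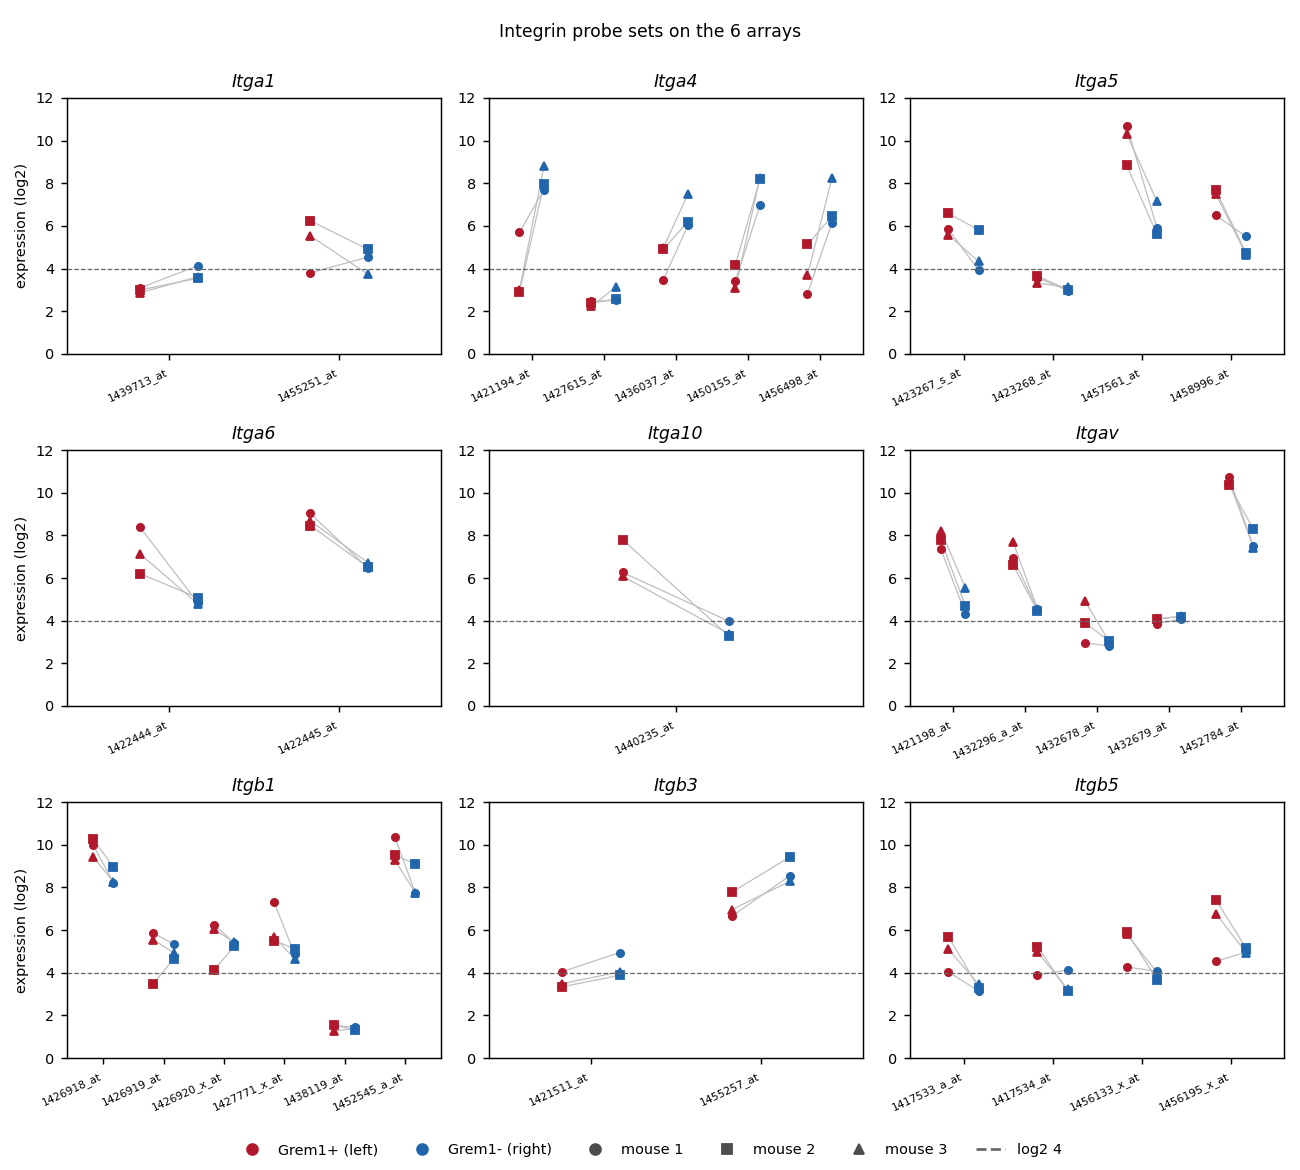
Log2 expression of the 31 probe sets, a panel for each of 9 genes, with Grem1+ (red, left) and Grem1- (blue, right) of each mouse joined by a grey line and the dashed line at log2 4. Lines of Itga5, Itga6, Itga10 and most of Itgav run down from Grem1+ to Grem1-, those of Itga4 and Itgb3 run up, and those of Itgb1 and Itgb5 differ between probe sets and mice.

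The subunit of the classical fibronectin receptor, Itga5, lies on chromosome 15 (GRCm38.p6, 103344286 to 103366791) and pairs only with beta 1. Its brightest probe set, 1457561_at, stood at 10.71, 8.85 and 10.32 in Grem1+ of mice 1, 2 and 3 and at 5.92, 5.61 and 7.15 in Grem1-. The groups did not overlap, and the lowest Grem1+ array lay above the highest Grem1- array. The difference was 3.73 (SE 0.45, limma adjusted p = 0.0166), or 13.3-fold, and without mouse 1 and without the block it was 3.21 (adjusted p = 0.0773). A further probe set, 1458996_at, read 6.49, 7.67 and 7.51 in Grem1+ and 5.50, 4.74 and 4.65 in Grem1-, again with no overlap, but the 2.26 between the means (SE 0.51) missed the threshold (adjusted p = 0.0532, and 0.0137 without the block). The probe set 1423267_s_at differed by 1.32 (SE 0.36, adjusted p = 0.0767) and its groups overlapped. The last, 1423268_at, stayed below log2 4 on all arrays, at 3.33 to 3.65 in Grem1+ and 2.97 to 3.12 in Grem1-. With the mean of the 3 tested probe sets Itga5 differed by 2.44 (adjusted p = 0.00655).

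Itga4 (chromosome 2, 79255426 to 79333114), the subunit that leukocytes and blood progenitors use to bind VCAM-1, stood on 1450155_at at 3.43, 4.18 and 3.07 in Grem1+ and at 6.96, 8.19 and 8.26 in Grem1-. All Grem1+ arrays were at or near the dim range, and the groups lay well apart. The difference was -4.24 (SE 0.43, limma adjusted p = 0.0131), or -3.74 with values below log2 4 set to 4. On 1421194_at the 3 Grem1+ arrays read 5.69, 2.89 and 3.01 against 7.70, 7.97 and 8.80 in Grem1-, so mouse 1 kept more signal than mice 2 and 3. That difference was -4.30 (SE 0.84, adjusted p = 0.0387), and it did not pass without the filter on dim probe sets (adjusted p = 0.105) or, without the block, when mouse 2 or mouse 3 was left out (adjusted p = 0.103 and 0.104). A smaller fall was seen on 1436037_at, with -2.12 (SE 0.39, adjusted p = 0.0349), which did not pass without the filter (adjusted p = 0.0685) or without the block in any 2 mice (adjusted p = 0.106 to 0.132). The fourth tested probe set, 1456498_at, had 2.82, 5.13 and 3.68 in Grem1+ and 6.14, 6.45 and 8.23 in Grem1-, with no overlap, and its -3.06 (SE 0.70) missed the threshold (adjusted p = 0.0541, and 0.0341 without the block). The fifth, 1427615_at, was below log2 4 on all arrays. The leukocyte markers, at a mean level of 6.68 to 7.86 in Grem1+ and 10.06 to 10.36 in Grem1-, moved the same way on these arrays. So did the mean level of the erythroid list, at 3.40 to 3.97 in Grem1+ against 6.18 to 6.50 in Grem1-. The largest falls in that list were those of Slc4a1 (-5.83) and Hemgn (-7.69), and Klf1 did not pass (-1.57, limma adjusted p = 0.152). Alas2 and Epor were too dim to be tested, and Hba-a1 lay below log2 4 on all arrays. The part of either list in the fall of Itga4 was not tested.

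In Grem1+, Itga5 was higher on its brightest probe set, Itgb1 was higher on 1 of 5 tested probe sets and Itga4 was lower on 3 of 4. The windows of 250 bases before their annotated starts are shown as examples and do not stand for every called gene. They are RefSeq sequences of GRCm38.p6, read 5′ to 3′ on the strand of the gene, and 8 of the 10 genes had such a window. Capitals mark matches, on either strand, to the GC box GGGCGG, the RUNX core TGTGGT and the SOX core ACAAAG, and no matches overlapped one another.
Itga5, chr15:103366792-103367041, minus strand: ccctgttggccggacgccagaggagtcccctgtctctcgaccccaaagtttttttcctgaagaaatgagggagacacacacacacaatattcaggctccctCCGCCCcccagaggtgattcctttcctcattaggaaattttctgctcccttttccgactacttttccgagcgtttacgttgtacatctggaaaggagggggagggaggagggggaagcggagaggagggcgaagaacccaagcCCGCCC
Itgb1, chr8:128685404-128685653, plus strand: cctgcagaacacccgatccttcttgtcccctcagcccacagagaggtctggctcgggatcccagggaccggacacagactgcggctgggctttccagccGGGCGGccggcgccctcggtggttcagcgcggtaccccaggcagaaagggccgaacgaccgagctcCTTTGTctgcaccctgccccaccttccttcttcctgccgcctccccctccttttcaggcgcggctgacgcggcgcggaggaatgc
Itga4, chr2:79255176-79255425, plus strand: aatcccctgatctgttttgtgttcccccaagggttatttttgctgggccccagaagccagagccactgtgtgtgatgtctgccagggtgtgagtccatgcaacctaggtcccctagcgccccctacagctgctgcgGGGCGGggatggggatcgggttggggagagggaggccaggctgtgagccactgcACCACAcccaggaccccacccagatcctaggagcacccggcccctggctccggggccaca
The GC box was present in 4 of the 8 windows (Itga4, Itga5, Itgb1 and Itgb5), and in 32.7% of 32851 windows of the same length before all annotated starts. The RUNX core was present in the window of Itga4 alone among the 8, and in 14% of all windows. The SOX core was present in that of Itgb1 alone, and in 16.5% of all windows. The letters ACAATG, another SOX core, the TATA box TATAAA, the ETS core CCGGAA and the GATA core AGATAA were in 0 of the 8 and in 10.7%, 12.4%, 12% and 9.99% of all windows. The windows of Itgav, higher on 3 of 4 tested probe sets, and of Itga10, higher on its only 1, are not shown. Both held 0 matches to any of these letters. A match describes these letters only. The expression values above carry no measure of binding at these windows.

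Of the collagen-binding subunits, Itga10 rose and Itga1 did not pass. Itga10 (chromosome 3, 96645584 to 96664519) encodes the collagen II receptor subunit of chondrocytes. Its only probe set, 1440235_at, stood at 6.26, 7.80 and 6.08 in Grem1+ and at 3.98, 3.29 and 3.39 in Grem1-. Every Grem1- array lay below log2 4, so the rise is given as a bound of at least 6.55-fold (measured difference 3.16, SE 0.54, limma adjusted p = 0.03). The call was lost without the filter on dim probe sets (adjusted p = 0.0754) and, narrowly, without mouse 3 and without the block (difference 3.40, adjusted p = 0.0501). Its ligand gene Col2a1 had a mean log2 of 12.04 ± 0.47 in Grem1+ against 11.52 ± 0.28 in Grem1- (SD, n = 3) and did not pass (difference 0.52, SE 0.29, limma adjusted p = 0.284). Itga1, whose product binds collagen IV of basement membranes, read 3.79, 6.24 and 5.53 in Grem1+ and 4.55, 4.89 and 3.73 in Grem1- on 1455251_at. It was lower in mouse 1, by 0.75 on the log2 scale, and higher in mice 2 and 3 by 1.35 and 1.81, and the groups overlapped. The difference of 0.80 had an interval from -0.83 to 2.43 (adjusted p = 0.421). The other Itga1 probe set was too dim to be tested, with 2.87 to 3.09 in Grem1+ and 3.55 to 4.14 in Grem1-.

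The laminin-binding subunit Itga6 (chromosome 2, 71786886 to 71858427), also known as CD49f, rose on 1422445_at, where it stood at 9.02, 8.46 and 8.68 in Grem1+ and at 6.45, 6.50 and 6.71 in Grem1-. The spread within each group was far smaller than the gap between them, and the difference was 2.17 (SE 0.31, limma adjusted p = 0.0214), or 4.48-fold. The second probe set, 1422444_at, gave 8.37, 6.20 and 7.13 in Grem1+ and 4.82, 5.07 and 4.78 in Grem1-. Here the Grem1+ arrays were widely spread but did not overlap with Grem1-, and the 2.34 between the means (SE 0.55) missed the threshold (adjusted p = 0.0571, and 0.0277 without the block).

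The alpha V subunit rose on its 3 brightest probe sets. Itgav (chromosome 2, 83722303 to 83806917) stood on 1452784_at at 10.72, 10.38 and 10.54 in Grem1+ and at 7.50, 8.28 and 7.42 in Grem1-, a difference of 2.81 (SE 0.37, limma adjusted p = 0.0186). On 1421198_at it read 7.34, 7.76 and 8.22 in Grem1+ and 4.33, 4.69 and 5.53 in Grem1-, a difference of 2.93 (SE 0.29, adjusted p = 0.0122). On 1432296_a_at the difference was 2.57 (SE 0.34, adjusted p = 0.0187). These 3 probe sets thus lay between 5.94-fold and 7.62-fold, with no overlap between the groups on any of them. The call of 1421198_at was lost without mouse 2 and without the block (2.86, adjusted p = 0.065). The probe sets 1432678_at and 1432679_at carry the same accession in the annotation. On 1432679_at the arrays read 3.85 to 4.09 in Grem1+ and 4.08 to 4.20 in Grem1-, and the difference did not pass (-0.15, interval -0.90 to 0.59, adjusted p = 0.744). The other, 1432678_at, was too dim for the test, at 2.96, 3.91 and 4.93 in Grem1+ and 2.82, 3.03 and 2.99 in Grem1-, with the higher value in Grem1+ in each mouse and overlap between the groups.

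Among the beta subunits, Itgb1 (chromosome 8, 128685654 to 128733579) was present in both fractions. Its product is the common partner of alpha 1, alpha 4, alpha 5, alpha 6, alpha 10 and alpha 11. On 1426918_at it stood at 10.01, 10.28 and 9.44 in Grem1+ and at 8.23, 8.95 and 8.27 in Grem1-, with no overlap. The difference of 1.43 (SE 0.30, limma adjusted p = 0.0457) was just within the threshold. It was lost without the filter (adjusted p = 0.054), with the mean of the 5 tested probe sets (difference 0.87, adjusted p = 0.191) and, without the block, when any mouse was left out (adjusted p = 0.193, 0.084 and 0.113 without mouse 1, 2 and 3). The bright probe set 1452545_a_at had 10.36, 9.53 and 9.28 in Grem1+ and 7.74, 9.08 and 7.74 in Grem1-, a difference of 1.53 (SE 0.51, adjusted p = 0.115) that was 2.62 in mouse 1 but 0.45 in mouse 2. On 1427771_x_at the difference was 1.28 (SE 0.50, adjusted p = 0.157).

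The probe sets 1426919_at and 1426920_x_at, annotated to the same accession as 1426918_at, differed by -0.02 (interval -1.33 to 1.29) and 0.11 (interval -1.27 to 1.49). In mouse 2 they were lower in Grem1+ by 1.18 and 1.14 on the log2 scale, while in mice 1 and 3 they were higher by 0.51 to 0.85. Leaving out mouse 2 moved them to 0.56 and 0.73. The sixth Itgb1 probe set, 1438119_at, stayed between 1.26 and 1.55 on all arrays.

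Of the partners of alpha V, Itgb3 fell on 1 of its 2 probe sets and Itgb5 did not pass on any. Itgb3 (chromosome 11, 104608000 to 104670476), which encodes CD61 of platelets and osteoclasts, stood on 1455257_at at 6.65, 7.78 and 6.96 in Grem1+ and at 8.54, 9.43 and 8.29 in Grem1-. The mice gave differences of -1.89, -1.65 and -1.32, all downward, and the fitted one was -1.62 (SE 0.30, limma adjusted p = 0.034). Without the block it did not pass when mouse 1, 2 or 3 was left out (adjusted p = 0.186, 0.0623 and 0.149). The dim probe set 1421511_at differed by -0.67 (SE 0.29, adjusted p = 0.186). Itga2b, the platelet partner of beta 3, lay below log2 4 on all 6 arrays, at a log2 mean of 3.61 ± 0.07 in Grem1+ against 3.61 ± 0.14 in Grem1- (SD, n = 3). Of 10 megakaryocyte and platelet markers, 5 were below log2 4 on all arrays (Itga2b, Gp5, Gp6, Gp9 and Treml1), and 3 passed the filter. The platelet chemokine Pf4 was the 1 of these past the threshold, with a difference of -2.96 (SE 0.50). Clec1b, a platelet receptor, lay lower in Grem1+ in all 3 mice without passing (-1.57, limma adjusted p = 0.0819). The remaining tested marker, Gp1bb, lay higher in Grem1+ in all 3 mice without passing (0.34, limma adjusted p = 0.474). The mean level of the 10 markers was 3.24 to 3.55 in Grem1+ and 3.66 to 4.47 in Grem1- (summed 32.4 to 35.5 and 36.6 to 44.7). Of 9 osteoclast markers, 5 (Calcr, Ocstamp, Dcstamp, Atp6v0d2 and Oscar) were below log2 4 on all arrays. A further 1 was higher (Nfatc1) and 1 lower (Mmp9), where 11.1% of all genes tested were higher and 7.81% lower. The mean level of the 9 was 3.99 to 4.59 in Grem1+ and 4.21 to 4.73 in Grem1-.

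Itgb5 (chromosome 16, 33829665 to 33949338), the other partner of alpha V, had 4 tested probe sets, none past the threshold (limma adjusted p = 0.063 to 0.252). By unadjusted limma p, 1417533_a_at (0.0135) and 1456133_x_at (0.0453) were under 0.05, and 1417534_at and 1456195_x_at were not. Of all 18157 probe sets, 6360 had an unadjusted p under 0.05. On 1456195_x_at Itgb5 read 4.54, 7.43 and 6.77 in Grem1+ and 4.95, 5.15 and 4.94 in Grem1-. Mice 2 and 3 were thus higher in Grem1+, by 2.28 and 1.83, and mouse 1 was lower by 0.41 on the log2 scale. On 1417533_a_at, where the groups did not overlap, the Grem1+ arrays stood at 4.03, 5.69 and 5.10 and the Grem1- arrays at 3.15, 3.29 and 3.45 (adjusted p = 0.063, and 0.0454 without the block). Every Grem1- value was dim there, and raising dim values to log2 4 gave a difference of 0.94 (adjusted p = 0.205). Without mouse 1 and without the block, 1417534_at and 1456133_x_at passed (adjusted p = 0.0461 and 0.0444). In every Itgb5 probe set the Grem1+ array of mouse 1 was below those of mice 2 and 3.

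**Figure D2:**
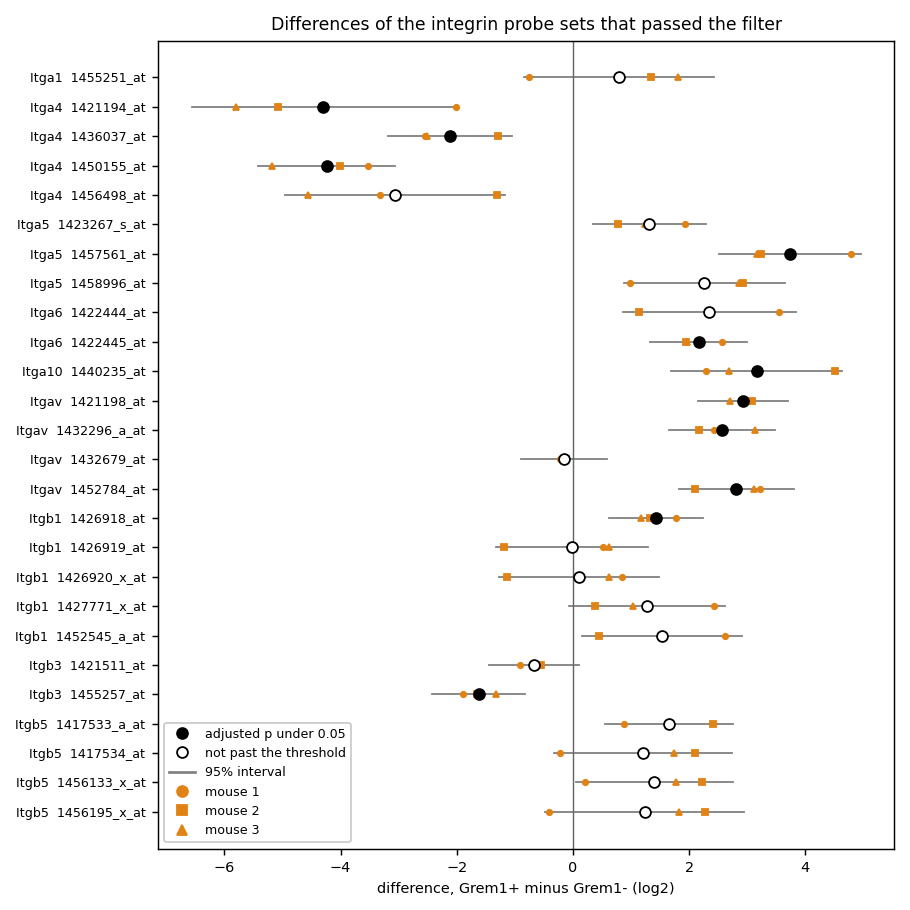
Difference of Grem1+ minus Grem1- (log2) for the 26 tested probe sets, with the mean as a circle (filled where the adjusted p was under 0.05), its 95% interval as a line and the 3 mice as orange marks. The 7 filled circles to the right of 0 belong to Itga5, Itga6, Itga10, Itgav and Itgb1, and the 4 to the left to Itga4 and Itgb3.

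The other integrin subunits were examined next, each by its brightest tested probe set. Of 16 genes, 15 were annotated and 7 passed the filter, of which 0 were higher and 5 lower (limma, adjusted p under 0.05), where 11.1% of all genes so represented were higher and 7.81% lower. The median difference was -2.00, against 0.04 over all 10151 genes. The 5 are leukocyte integrins. Itgb2, the beta subunit CD18 shared by leukocyte integrins, stood at 7.38, 6.04 and 9.22 in Grem1+ and at 11.44, 11.54 and 11.49 in Grem1-, a difference of -3.95 (SE 0.69). The Grem1- arrays lay close together (SD 0.05), while the Grem1+ arrays were widely spread, with mouse 3 highest.

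Its partners Itgal (LFA-1), Itgam (Mac-1) and Itgax (CD11c) also fell. Itgal differed by -2.34 (SE 0.50), Itgam by -1.57 (SE 0.34), and Itgax, which was dim in Grem1+ of every mouse, by at least 3.11-fold. Itgax passed the filter through its Grem1- arrays alone, so the counts of this list describe the genes that passed and not the whole list. Itgb7, which pairs with alpha 4 in lymphocytes, read 5.08, 4.84 and 5.83 in Grem1+ and 7.21, 7.31 and 7.30 in Grem1-, a difference of -2.03 (SE 0.34, limma adjusted p = 0.0289). All 5 lost their call without the filter on dim probe sets, and, without the block and without mouse 1, 2 or 3, 0, 0 and 2 genes of this list passed. The mean level of the leukocyte markers, of which Itgb2 is one, was 6.68 to 7.86 in Grem1+ and 10.06 to 10.36 in Grem1-, and its part in these falls was not tested.

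Itga2, Itga2b, Itga7, Itga9, Itgae, Itgb4, Itgb6 and Itgb8 lay below log2 4 on all arrays. Itga3, a laminin receptor subunit, read 5.22 ± 0.25 in Grem1+ against 5.35 ± 0.14 in Grem1- (SD, n = 3), with an interval of the difference from -0.91 to 0.65. Itga8, which binds nephronectin, stood at 9.06, 7.64 and 2.36 in Grem1+ and at 4.84, 2.61 and 2.41 in Grem1-. It was higher by 4.22 and 5.03 in mice 1 and 2 and dim in both fractions of mouse 3, and the 3.06 between the means (SE 1.11) missed the threshold (limma adjusted p = 0.137).

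**Figure D3:**
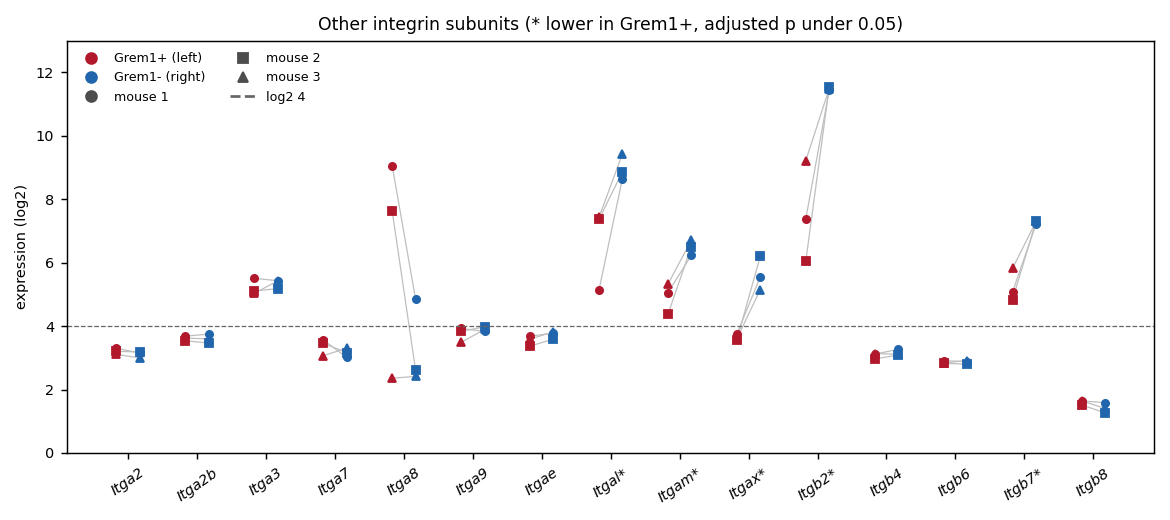
Log2 expression of 15 other integrin subunits on the 6 arrays, Grem1+ (red, left) and Grem1- (blue, right) of each mouse joined by a line, with an asterisk on the 5 genes that were lower in Grem1+. The 5 marked genes are Itgal, Itgam, Itgax, Itgb2 and Itgb7, and 8 genes lie wholly below the dashed line at log2 4.

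Ligands of these receptors were examined in the same way. Of 30 ligand genes, 26 were tested, 12 of which were higher and 0 lower (limma, where 11.1% of all genes were higher and 7.81% lower). The median difference was 1.29, against 0.04 over all genes tested. Edil3 and Mfge8, secreted RGD proteins bound by alpha V integrins, were at least 13.5-fold higher and higher by 3.93 (SE 0.46). Edil3 passed the filter through its Grem1+ arrays alone, so the counts of the ligand list describe the genes that passed and not the whole list. Npnt, nephronectin, the ligand of alpha 8 beta 1, was higher by 3.91 (SE 0.31), with 6.33, 9.06 and 5.66 in Grem1+ and 2.10, 5.06 and 2.15 in Grem1-. In Grem1- 2 of the values are dim, and raising dim values to log2 4 gave a difference of 2.66. Ibsp, the RGD protein bone sialoprotein, differed by 3.48 (SE 0.42), Icam1, a ligand of leukocyte integrins, by 3.07 (SE 0.42), and the cartilage collagen Col11a1 by 2.34 (SE 0.30).

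Fn1, fibronectin itself, stood at 11.49, 11.99 and 11.24 in Grem1+ and at 9.34, 10.29 and 9.95 in Grem1-, a difference of 1.71 (SE 0.32, limma adjusted p = 0.0359) in the same direction as Itga5. Vcam1, the partner of alpha 4 on stroma, read 3.01, 6.90 and 5.88 in Grem1+ and 7.87, 9.03 and 7.51 in Grem1-. It did not overlap between the groups, and its difference of -2.87 (SE 0.74) did not pass (adjusted p = 0.0685). Col1a1 stood at 10.18 ± 0.88 in Grem1+ and 10.22 ± 0.18 in Grem1-, and Col4a1, a ligand of alpha 1, at 6.32 ± 0.80 in Grem1+ against 8.37 ± 0.94 in Grem1- (SD, n = 3), and neither passed (limma adjusted p = 0.953 and 0.134). Col4a2, the chain that assembles with it in collagen IV, read 6.51, 6.34 and 4.90 in Grem1+ and 4.81, 4.85 and 3.62 in Grem1-, and was higher by 1.49 (SE 0.29, limma adjusted p = 0.0375). Vtn, vitronectin, was below log2 4 on all arrays, and Spp1 was not analysed here. Without the block and without mouse 1, 2 or 3, 3, 5 and 5 ligand genes passed.

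The proteins that bind integrin tails inside the cell, or act on them, were examined last. Of 32 activators, adaptors and kinases, 29 were tested, 7 were higher and 5 lower, with a median difference of -0.10 (limma, where 11.1% of all genes were higher and 7.81% lower). Fermt2, kindlin-2 of non-blood cells, stood at 9.11, 9.14 and 8.72 in Grem1+ and at 3.92, 4.79 and 5.46 in Grem1-, a difference of 4.27 (SE 0.47, limma adjusted p = 0.0146). Fermt3, kindlin-3 of blood cells, stood at 5.27, 4.72 and 6.61 in Grem1+ and at 9.21, 9.35 and 9.41 in Grem1-, a difference of -3.79 (SE 0.46, adjusted p = 0.0166). The groups were apart for both, in opposite directions.

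Of the parvins, which bind integrin-linked kinase, Parva was higher by 3.69 (SE 0.80) and Parvg, the form of blood cells, differed by -3.94 (SE 0.48), while Parvb was near log2 4 in both fractions and did not pass (-0.10, SE 0.28, limma adjusted p = 0.838). Tns1, tensin 1 of fibrillar adhesions, was higher by 4.90 (SE 0.46), and Sharpin, an inhibitor of integrin activation, differed by -2.84 (SE 0.51). The talins, vinculin, paxillin and integrin-linked kinase did not pass, with differences of -1.22 for Tln1 (SE 0.32, adjusted p = 0.0715), 1.82 for Tln2 (SE 0.42, adjusted p = 0.0555, dim on all Grem1- arrays), 0.51 for Vcl (SE 0.42), -0.58 for Pxn (SE 0.44) and 0.77 for Ilk (SE 0.36). Probe sets of the _s, _x and _a types can match more than 1 transcript. With these left out, 6 genes of this list passed in place of 12, since Fermt3, Parva, Lims1, Actn4, Sharpin and Cd151 were measured on them. In that fit 18.9% of all 12944 probe sets tested were called. Without the block and without mouse 1, 2 or 3, 6, 5 and 5 genes of this list passed.

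**Figure D4:**
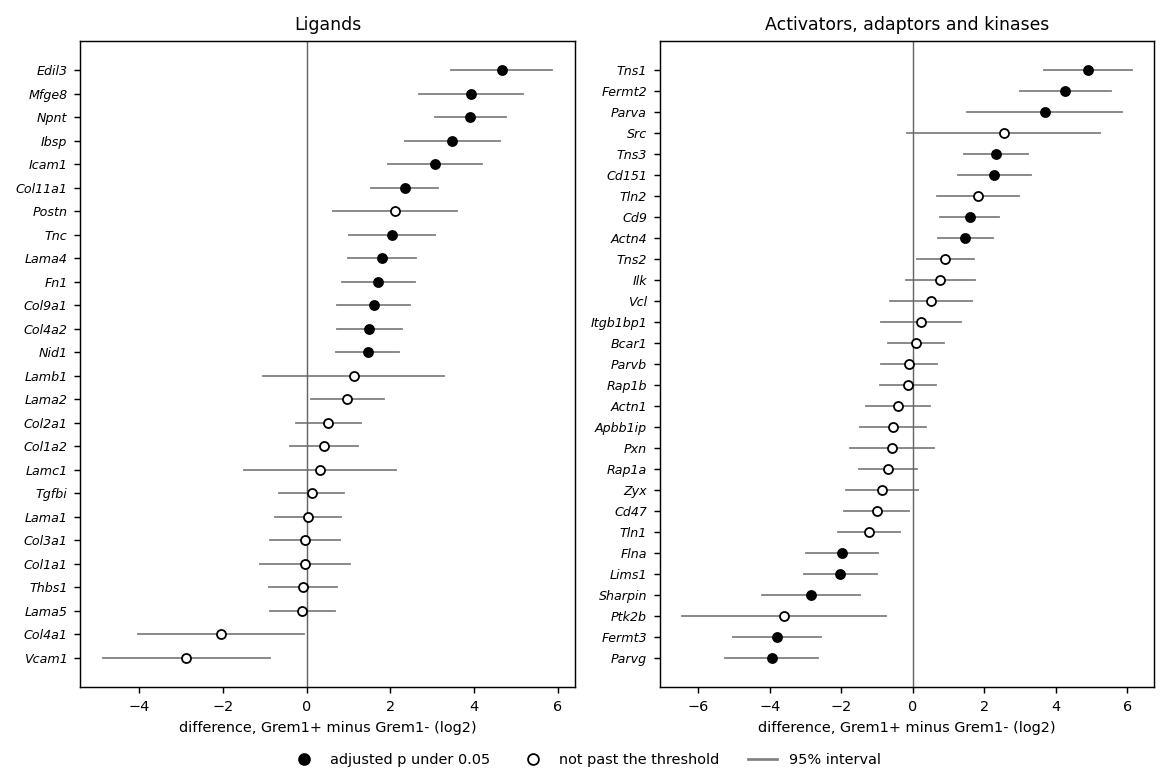
Difference of Grem1+ minus Grem1- (log2) for 26 ligand genes (left) and 29 activators, adaptors and kinases (right), with 95% intervals and filled circles where the adjusted p was under 0.05. All 12 filled ligand circles lie to the right of 0, and the adaptors have 7 filled circles to the right and 5 to the left.

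Genes of the most alike pattern were taken as those with the smallest root mean square difference of centred log2 values over the 6 arrays, 1 probe set a gene. For Itgb1 these were Lpp, a protein of focal adhesions, at 0.07, and Ctnna1, the adhesion protein alpha catenin, at 0.12. For Itgav they were Ldlrad3 at 0.10 and Foxo1, a transcription factor, at 0.16, and for Itga6 Insig1, a regulator of sterol synthesis, at 0.11 and Emp1 at 0.12. For Itga5 they were St7l at 0.40 and Matn3, a cartilage matrilin, at 0.42, for Itga10 Cryba4 at 0.26 and Tmem47 at 0.27, and for Itga1 Cstf3 at 0.20 and Stoml2 at 0.23. For Itga4 they were Glcci1 at 0.41 and Cd177, a neutrophil surface protein, at 0.42, for Itgb3 Apool at 0.13 and Apaf1, the scaffold of the apoptosome, at 0.14, and for Itgb5 9530059O14Rik at 0.16 and Tmem147 at 0.27. Of the remaining marker lists, 0 of 4 tested endothelial genes passed (mean level 3.26 to 3.53 in Grem1+ and 3.84 to 4.22 in Grem1-). In the erythroid list 2 of 3 tested genes, Slc4a1 and Hemgn, were lower (3.40 to 3.97 and 6.18 to 6.50). Hemgn passed the filter through its Grem1- arrays alone. Of 12 leukocyte genes 7 were lower and 0 higher, where 11.1% of all genes tested were higher and 7.81% lower.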

How the data were processed

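Per the labels' protocols, sorted marrow RNA was purified by RNAqueous-Micro columns and amplified by NuGEN's Ovation One-Direct kit before Affymetrix hybridisation. The deposited values are log2 expression, 1 value for each probe set and array. GCRMA, which corrects background and summarises probes, is named per the submitters' processing notes without version or settings. That the scale is log2 was inferred from a range of 0.80 to 14.05. The deposited table held 45101 probe sets, 64 of them controls, and 34945 others had exactly 1 symbol in the platform annotation. Gene positions and promoters are RefSeq's (GRCm38.p6), matched by symbol, and all 9 genes with a probe set also matched by Entrez identifier.

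Probe sets above log2 4 on at least 3 of 6 arrays (18157, of 10151 genes) were fitted with limma 3.58.1 (R 4.3.3, lmFit and eBayes, two-sided) as Grem1+ minus Grem1- with the mouse as a block, and p-values were adjusted by Benjamini-Hochberg over all of them at 0.05. Residual degrees of freedom were 2, and eBayes added 2.28. The limit of log2 4 is a choice and not a detection limit, and where a call was made with every array of the lower group below it, the fold is given as a bound against log2 4. The number of arrays limits the precision. Matching of the fractions by mouse is stated in the series design text, and mice were numbered as in the titles. After group means were removed, the arrays of mouse 1, 2 and 3 correlated at 0.014, 0.052 and 0.031, so these correlations do not show the pairing. High Xist was shared by the fractions of mouse 3 alone (10.60 and 11.04). For mice 1 and 2 the pairing rests on the series design text. In lists, the tested probe set with the highest mean stood for a gene.

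Every member probe set is described. Up to 6 genes of each pathway list with the largest absolute difference among those past the threshold were to be named. The known partners and ligands of the members were to be named too. Itga8, Tln1, Tln2, Vcl, Pxn, Ilk, Parvb, Col4a2, Clec1b and Gp1bb were chosen after their values were seen. The members and lists were chosen with earlier results of these data known. The fit was also run on simulated data with independent noise and no mouse effect, so that run did not test the block. Alternatives were the block, the filter, floors, normalization between arrays, 1 value a gene, shared probe sets, eBayes settings and each mouse left out.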

Additional observations from a re-analysis of the deposited data

How the results depend on the processing

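With all arrays, the 7 higher and 4 lower integrin probe sets were the same in number under median centring, quantile normalization, cyclic loess and values below log2 4 set to 4. In these fits 16.1% to 18.3% of all tested probe sets were called, against 17.8% in the main fit. With no replicate block 15 passed (10 higher and 5 lower), where 23.2% of all tested probe sets did. Without the filter on dim probe sets 7 passed in the family (5 higher and 2 lower), with 0 of the other subunits and 7 adaptors. In that fit 34945 probe sets were tested and 5.04% of them passed. Without the filter 19 of the 31, and 7942 of all 34945 probe sets, had an unadjusted p under 0.05 in limma. With 1 probe set a gene 7 genes passed (5 higher and 2 lower), and with probe sets averaged by gene 6 (4 higher and 2 lower), which count genes. Of all 10151 genes, 20.2% and 27.1% passed in these fits. Without probe sets that may be shared, 6 adaptors passed, where 18.9% of all tested probe sets did. Leaving out a mouse gave 0 in every count with the block. Without the block it gave 6 to 10 family probe sets (5 to 8 higher, 1 to 2 lower), 0 to 2 other subunits, 5 to 6 adaptors and 3 to 5 ligands. Of all tested probe sets, 10.3% to 10.6% passed in these last fits. Only 2 Itgb1 probe sets changed sign. 1426919_at stood at 0.15 with values below log2 4 set to 4, 0.033 under quantile normalization and 0.021 under cyclic loess, and leaving out each mouse gave -0.34 to 0.56. Leaving out each mouse gave -0.26 to 0.73 for 1426920_x_at, with -0.15 without mouse 3, with or without the block. The cause of these changes was not tested. Of 389 comparisons of a tested integrin probe set with an alternative, 315 kept direction and side of the threshold. Another 52 lost and 13 gained a call, and 9 changed sign. These counts include the fits with the block that left out a mouse, where 0 probe sets of the whole table were called. In those fits no call could be kept or gained. With 3 mice and a limit of log2 4, a probe set that missed the threshold or was dim is not shown to be equal in both fractions.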
